A study of Mus musculus with 2 samples.

Results

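The integrin subunits of the mammary epithelium were followed in single cells recovered from regenerating mouse mammary transplants. The members were 9 genes picked by name, Itga2, Itga3, Itga5, Itga6, Itgav, Itgb1, Itgb4, Itgb5 and Itgb6, out of 27998 gene rows. The donor basal cells came from mice with the mTmG reporter, a red to green switch in which Cre replaces Tdtomato by GFP, and they met an adenovirus carrying Cre and GFP in both groups. In the Ctrl group (Fgfr2+/+) these basal cells had intact Fgfr2, and in the Fgfr2 KO group (Fgfr2∆/∆) they carried the deleted allele. In both groups they were mixed with red luminal cells that had intact Fgfr2 and had not met Cre. The mixtures went into cleared fat pads of female nude mice of 3 weeks, which lack most T cells but keep other leukocytes, and the grafts were taken 5 days later, sorted and run on the 10x droplet platform. How many animals were pooled was not given in the sources used here. Each group had 1 library, so no difference between the groups has a replicate check and no p-value is given. Counts are unique molecular identifiers (UMIs). Levels are UMIs per 1000000 UMIs of the same cells (CPM), and every interval is a 95% interval that covers counting error only.

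Integrins are surface receptors built from an alpha and a beta chain that bind the extracellular matrix outside and the cytoskeleton inside. The pair of alpha6 and beta4 anchors basal epithelial cells to laminin through hemidesmosomes, whereas the pairs of beta1 with alpha3, alpha6, alpha2 or alpha5 bind laminin, collagen or fibronectin and signal through focal adhesions. The alphav chain pairs with beta5 or beta6 to bind ligands with an RGD motif, and alphav with beta6 releases active TGF-beta from its latent complex. In the mammary gland, basal cells lie on the basement membrane, and the alpha6 protein, CD49f, is a standard sort marker for them. That marker was also used here, because donor basal cells had been gated as CD24 medium and CD49f high and donor luminal cells as CD24 high and CD49f low. A level of Itga6 mRNA after transplantation is thus not independent of the choice of the donor cells.

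All 9 genes are protein coding in GENCODE M21 (GRCm38). The laminin receptor genes Itga6 (chromosome 2, 71745616 to 71858416, plus strand), Itgb4 (chromosome 11, 115974709 to 116008412, plus strand) and Itga3 (chromosome 11, 95044474 to 95076801, minus strand) include a pair on the same chromosome. Itgb1, the common partner, lies on chromosome 8 (128685654 to 128733200, plus strand). The collagen receptor gene Itga2 lies on chromosome 13 (114833081 to 114932100, minus strand) and the fibronectin receptor gene Itga5 on chromosome 15 (103344286 to 103366763, minus strand). Among the genes of RGD receptors, Itgav (83724397 to 83806916, plus strand) and Itgb6 (60598292 to 60722643, minus strand) lie on chromosome 2 and Itgb5 on chromosome 16 (33829665 to 33949338, plus strand).

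Ctrl comprised 268 cells with 5458515 UMIs, against 86 cells with 1253032 UMIs for Fgfr2 KO. Cells were called Ptprc-positive if any UMI of Ptprc, which encodes the leukocyte antigen CD45, was present. The remaining cells with 10 or more UMIs over the basal keratins Krt14 and Krt5 and the luminal keratins Krt8 and Krt18 took the class of the pair with more UMIs. This gave 63 basal-keratin, 98 luminal-keratin, 33 keratin-low and 73 Ptprc-positive cells in Ctrl, where 1 cell was tied, and 17, 20, 26 and 23 cells in the same order in Fgfr2 KO. Of 10 basal markers all were at least 2-fold higher in basal-keratin than in luminal-keratin cells of Ctrl, and 10 of 12 luminal markers were at least 2-fold lower, counts that include the 4 keratins of the rule. Cd3e, a T cell gene, was at 0 in every class. Fgfr2 itself had 32.9 CPM (23.6 to 44.7) in Ctrl and 24.7 CPM (9.94 to 51.0) in Fgfr2 KO basal-keratin cells; where its 3' tags lie relative to the deleted part was not given in the sources used here, so these levels do not check the labels. The reporter did not follow the keratins, since GFP was seen in 39 of 98 luminal-keratin and 19 of 63 basal-keratin cells of Ctrl. In Fgfr2 KO it was seen in 14 of 20 luminal-keratin and 9 of 17 basal-keratin cells. The background in Ptprc-positive cells was 6 of 73 for Ctrl and 2 of 23 for Fgfr2 KO. A keratin class is therefore not a donor, and results are also given for GFP-split cells, meaning basal-keratin cells with a GFP UMI and luminal-keratin cells without one. This split does not identify the donor, because of the basal-keratin cells it keeps, 8 of 19 (Ctrl) and 5 of 9 (Fgfr2 KO) also held Tdtomato, and of the luminal-keratin cells it keeps, 25 of 59 and 4 of 6 had no UMI of either reporter.

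The laminin receptor gene Itga6 was found in most epithelial cells of both classes. It had 130.1 CPM (110.8 to 152) in Ctrl basal-keratin cells and 100.4 CPM (88.7 to 113) in Ctrl luminal-keratin cells, and it was seen in 52 of 63 and 81 of 98 cells. In the Fgfr2 KO library it had 145 CPM (104 to 197) in basal-keratin and 74.6 CPM (53.3 to 102) in luminal-keratin cells, and it was seen in 15 of 17 and 12 of 20 cells. The level was thus higher in the basal class in both libraries, and the intervals of the classes overlapped in Ctrl and did not in Fgfr2 KO. Keratin-low cells had 60.7 CPM (Ctrl) and 12.3 CPM (Fgfr2 KO), and Ptprc-positive cells had 36.9 and 22.1 CPM.

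Itgb4, whose product pairs with alpha6 alone, had overlapping intervals in the classes of the Ctrl library, with 60.2 CPM (47.4 to 75.5) in basal-keratin and 54.8 CPM (46.2 to 64.5) in luminal-keratin cells. In the Fgfr2 KO library it had 67.1 CPM (40.4 to 105) in basal-keratin but 18.6 CPM (8.94 to 34.3) in luminal-keratin cells, on 19 and 10 UMIs. It was seen in 31 of 63 and 53 of 98 Ctrl cells and in 11 of 17 and 7 of 20 Fgfr2 KO cells. Of these 4 sums, that of the Fgfr2 KO luminal-keratin cells was the lowest, with an interval below those of the other 3. Itga3, a laminin receptor chain that pairs with beta1, ranged from 24.7 CPM in Fgfr2 KO basal-keratin cells to 39.2 CPM in Fgfr2 KO luminal-keratin cells, and all 4 intervals overlapped.

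Itgb1, the shared beta chain, was seen in 150 of 161 Ctrl and 33 of 37 Fgfr2 KO keratin-class cells. It had 186 CPM (163 to 212) in basal-keratin and 251 CPM (232 to 271) in luminal-keratin cells of Ctrl. In Fgfr2 KO the order was the other way, with 261 CPM (205 to 328) in basal-keratin and 199.5 CPM (164 to 241) in luminal-keratin cells. Of the 107 UMIs in Fgfr2 KO luminal-keratin cells, 53 came from 1 cell with 84314 UMIs in all. Itga2, a collagen receptor chain, had 2 UMIs in the luminal-keratin cells of each library, 1 in a Ctrl keratin-low cell and none in the other classes. For 63 Ctrl basal-keratin cells, a count of 0 allows up to 2.96 CPM of Itga2, so its pattern was not detectable at this depth.

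The RGD receptor genes came next. Itgav had 53.0 CPM (41.0 to 67.4) and 61.6 CPM (52.5 to 71.9) in Ctrl basal-keratin and luminal-keratin cells, and 38.9 CPM (19.4 to 69.5) and 39.2 CPM (24.2 to 59.9) in those of Fgfr2 KO. Itgb5 had 57.0 and 44.5 CPM in the Ctrl classes and 60.1 and 31.7 CPM in the Fgfr2 KO classes, with overlapping intervals. Itgb6, the epithelial partner of alphav, had 12.0 CPM (6.74 to 19.9) and 21.7 CPM (16.4 to 28.1) in the Ctrl classes. In Fgfr2 KO it was seen as 2 UMIs in each class, or 7.07 CPM (0.856 to 25.5) and 3.73 CPM (0.452 to 13.5). Itga5, the fibronectin receptor chain, had 11.2 and 18.6 CPM in the Ctrl classes and 10.6 and 11.2 CPM in the Fgfr2 KO classes, the last pair on 3 and 6 UMIs.

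**Figure D1:**
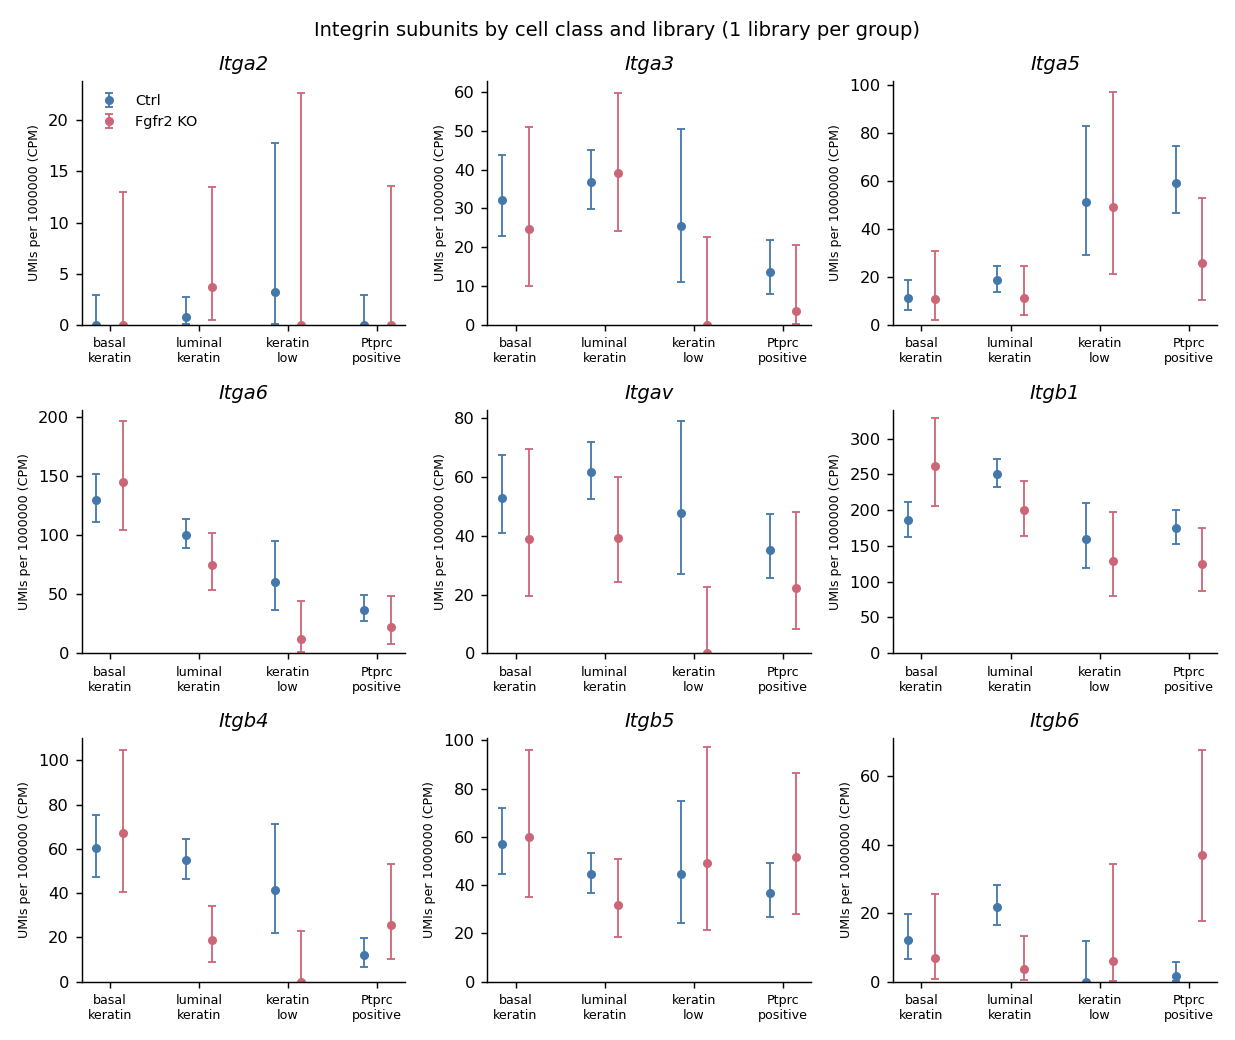
Level of each integrin gene (y axis, CPM) by cell class (x axis) in the Ctrl (blue) and Fgfr2 KO (red) libraries, 1 library each; points are summed UMIs of the class and bars are 95% Poisson intervals. In luminal-keratin cells Itgb4 was at 54.8 CPM for Ctrl against 18.6 CPM for Fgfr2 KO, and all 10 Itgb6 UMIs of the Fgfr2 KO Ptprc-positive class came from 1 cell.

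To ask which subunits separate basal from luminal epithelium, the classes were compared within each library. In Ctrl, no member differed by 2-fold: Itga6 was 1.29 times as high in basal-keratin cells (log2 ratio 0.37, interval 0.08 to 0.66), and Itgb1 was 0.742 times as high (-0.43, interval -0.65 to -0.21). Itgb6 was also lower in basal-keratin cells, at -0.85 (interval -1.78 to -0.01). Of 8 members with at least 20 UMIs in the pair of sums, 0 were at least 2-fold higher and 0 at least 2-fold lower, against 5.51% and 9.05% of all 9535 genes tested. The median log2 ratio of the 8 was -0.21, beside -0.11 over all genes. The other 5 had intervals that held 0, from -0.73 for Itga5 to 0.36 for Itgb5. Among them Itgb4 had 0.14 as reported and -0.41 (-0.998 to 0.16) without cells holding fibroblast transcripts. With only the GFP-split cells (19 basal-keratin and 59 luminal-keratin) the ratio of Itgb1 was -0.06 (-0.41 to 0.28) and that of Itgb6 was -1.73 (-4.08 to -0.079). With cells holding at least 5 UMIs of fibroblast markers left out, Itgb1 had -0.24 (-0.54 to 0.04) and Itgb6 had -1.45 (-2.89 to -0.22); fibroblast markers summed to 120 CPM in basal-keratin and 560 CPM in luminal-keratin cells of Ctrl. With cells holding at least 5 UMIs of immune markers left out, 17 basal-keratin and 10 luminal-keratin cells remained, and Itgb1 had 0.13 (-0.60 to 0.89), Itgb4 had 1.96 (0.18 to 4.36) and Itgb6 had -0.044 (-3.17 to 3.54).

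In the Fgfr2 KO library the basal-keratin class was higher for Itgb4 and Itga6. Itgb4 was 3.60 times as high (log2 ratio 1.85, interval 0.67 to 3.12), and Itga6 was 1.94 times as high (0.96, interval 0.29 to 1.62). Of 6 members tested, 1 was at least 2-fold higher and 0 at least 2-fold lower, against 7.33% and 13.8% of 4653 genes. The median of the 6 was 0.66, beside -0.17 over all genes. Itgb5 (0.92), Itgb1 (0.39), Itgav (-0.01) and Itga3 (-0.66) had intervals that held 0. Without the cell with most Itgb1 UMIs in each class, the ratio of Itgb1 was 0.98 (0.43 to 1.53). Under the 15 other settings tried, the ratio of Itgb4 lay between 1.29 and 2.42. Its interval held 0 in the GFP-split cells, of which there were 9 and 6 (2.03, -1.01 to 7.56).

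**Figure D2:**
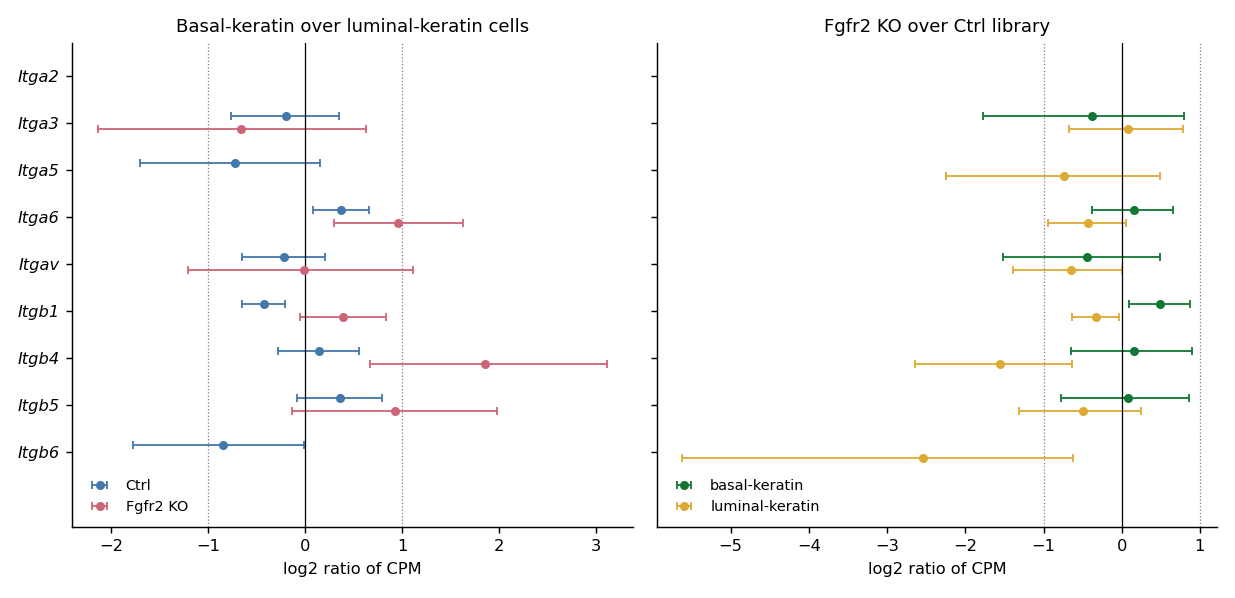
Log2 ratio of CPM (x axis) for each integrin gene with at least 20 UMIs, basal-keratin over luminal-keratin cells in Ctrl (blue) and Fgfr2 KO (red) on the left, and Fgfr2 KO over Ctrl in basal-keratin (green) and luminal-keratin (yellow) cells on the right. Bars are exact 95% intervals, dotted lines mark 2-fold, and Itgb4 has a ratio of 1.85 on the left in Fgfr2 KO and -1.55 on the right in luminal-keratin cells.

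The loss of Fgfr2 in the donor basal cells was asked about by comparing the libraries within each class. In luminal-keratin cells, Itgb4 and Itgb6 were lower in Fgfr2 KO. Itgb4 had 0.340 times the Ctrl level (log2 ratio -1.55, interval -2.65 to -0.63), and Itgb6 had -2.54 (-5.62 to -0.62) on 2 UMIs. Of 8 members tested, 0 were at least 2-fold higher and 2 at least 2-fold lower, against 3.94% and 8.97% of 9065 genes. The median of the 8 was -0.57, beside -0.029 over all genes, and 3 of the 8 had intervals below 0, against 9.32% of all genes. Itgb1 had -0.33 (-0.64 to -0.03), Itga6 had -0.43 (-0.95 to 0.05) and Itgav had -0.65 (-1.38 to 0.01). Itga3 had 0.09 (-0.67 to 0.78), with 10 of its 21 Fgfr2 KO UMIs from 1 cell with 84314 UMIs. Under 15 other settings the ratio of Itga3 lay between -1.14 and 1.23 and kept its sign in 9.

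The Itgb4 difference was as large without cells that held fibroblast transcripts (-1.68, -2.86 to -0.68) and had a wide interval around the reported one in the GFP-split cells (-2.80, -8.12 to -0.29), which were 6 in Fgfr2 KO. The Itgb6 difference depended on the Ptprc filter. A Fgfr2 KO cell with 83994 UMIs, 607 of them from Krt8 and Krt18, was placed in the Ptprc-positive class by 1 Ptprc UMI, and it held 10 Itgb6, 7 Itgb4, 6 Itga6 and 8 Itgb1 UMIs. With no filter on Ptprc this cell and keratin-holding Ctrl cells joined the keratin classes (21 and 110 luminal-keratin cells), and the ratio became 0.033 (-1.001 to 0.95) for Itgb6 and -0.88 (-1.70 to -0.15) for Itgb4. With at least 2 Ptprc UMIs needed for the Ptprc-positive class, neither passed 2-fold (-0.041 for Itgb6 and -0.95 for Itgb4), and without cells holding at least 5 UMIs of immune markers, which keeps 13 and 10 cells and tests 2 members, the count of lower members was also 0. Itgb1 moved as well, to -0.027 (-0.37 to 0.31) without cells holding fibroblast transcripts and to -1.01 (-1.44 to -0.61) without the cell with most Itgb1 UMIs in each class compared. In luminal-keratin cells fibroblast markers summed to 560 CPM for Ctrl and 151 CPM for Fgfr2 KO (39 of 98 and 2 of 20 cells with at least 5 UMIs), and immune markers to 430 and 153 CPM. Basal markers summed to 1628 CPM for Ctrl and 1255 CPM for Fgfr2 KO, where Myh11, Oxtr and Trp63 were at 0. Of 7 basal markers tested, 3 were at least 2-fold lower in Fgfr2 KO, against 8.97% of all genes. These were Krt14 and Krt5, which the class rule uses, and Cnn1. Krt17 had an interval above 0, but 164 of its 196 UMIs in Fgfr2 KO luminal-keratin cells with Prlr came from 1 cell. Luminal markers summed to 9425 and 7191 CPM (log2 ratio -0.39, interval -0.44 to -0.34), and 10 of 12 had intervals below 0, against 9.32% of all genes. The part of immune, basal and luminal transcripts in these differences was not tested beyond the settings given.

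In basal-keratin cells, 6 members were tested, and 0 were at least 2-fold higher and 0 at least 2-fold lower in Fgfr2 KO, against 4.14% and 11.5% of 6637 genes. Their median log2 ratio was 0.12, beside -0.099 over all genes. Under 15 other settings this median lay between -0.30 and 0.27 and kept its sign in 11. Itgb1 had 1.40 times the Ctrl level (0.49, interval 0.09 to 0.87), and it had 0.056 (-0.52 to 0.61) in the GFP-split cells, of which there were 9 and 19. The other 5 ran from -0.45 for Itgav to 0.16 for Itga6 and Itgb4, and all of their intervals held 0. Immune markers in basal-keratin cells summed to 414 CPM (Ctrl) and 120 CPM (Fgfr2 KO), and fibroblast markers to 120 and 28.3 CPM. Luminal markers summed to 2361 CPM (Ctrl) and 1526 CPM (Fgfr2 KO) in these cells, and basal markers to 9121 and 11875 CPM, and their part in the Itgb1 difference was not tested.

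Single cells showed how widely these levels were spread. Per 10000 UMIs of the cell, the median of Itga6 was 1.14 in Ctrl and 1.36 in Fgfr2 KO basal-keratin cells, and 0.855 and 0.693 in luminal-keratin cells. The highest cells reached 10.4 and 3.60 in the basal class and 7.15 and 2.70 in the luminal class, so the libraries overlapped throughout. The median of Itgb1 was 1.66 and 1.79 in basal-keratin cells, and 1.60 and 0.73 in luminal-keratin cells of Ctrl and Fgfr2 KO. Many cells had no Itgb4 UMI. After each cell was thinned to 8574 UMIs, Itgb4 was seen in 18 of 56 basal-keratin and 33 of 92 luminal-keratin cells of Ctrl, and in 4 of 13 and 2 of 17 of Fgfr2 KO. Ptprc-positive cells, which should lack Itgb4, had thinned shares of 5 of 57 (Ctrl) and 0 of 9 (Fgfr2 KO), and their median depths before thinning were 12228 and 6729 UMIs, against 22668.5 and 24626 in luminal-keratin cells. The Ctrl share includes keratin-holding cells, which gave 11 of the 15 Itgb4 UMIs of that class.

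**Figure D3:**
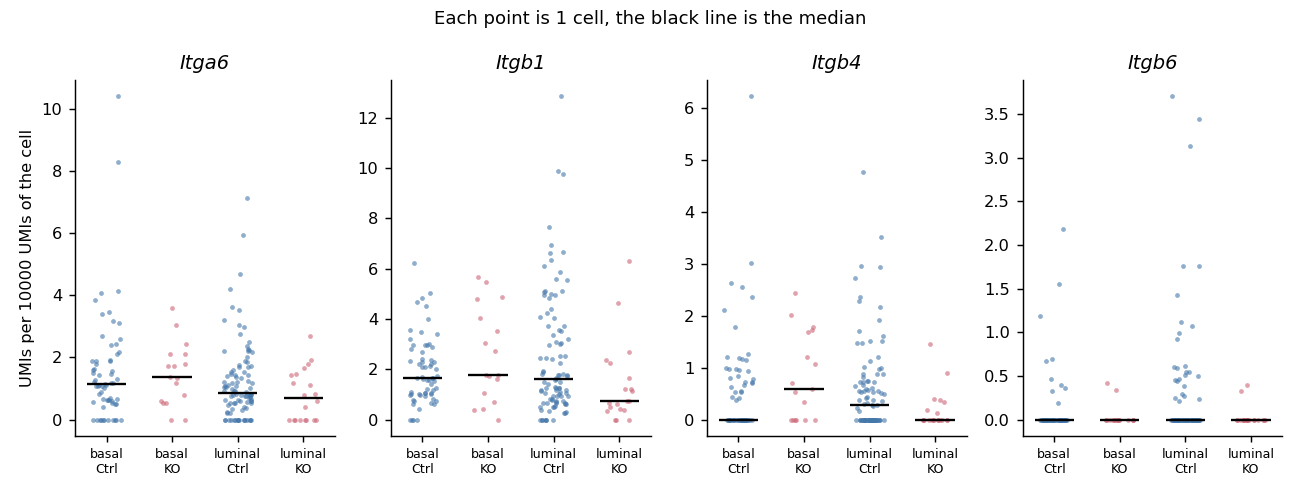
UMIs per 10000 UMIs of the cell (y axis) for 4 integrin genes in basal-keratin and luminal-keratin cells of the Ctrl (blue) and Fgfr2 KO (red) libraries; each point is 1 cell and the black line is the median. The median of Itgb4 was 0.58 in Fgfr2 KO basal-keratin cells and 0 in Fgfr2 KO luminal-keratin cells, and the points of the libraries overlap in every panel.

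Cells were also ordered by how much of their keratin was basal. In Ctrl, Itgb6 had 23.0 CPM (16.8 to 30.7) in cells with at most 20% basal keratin, 16.0 CPM (9.91 to 24.5) in cells between and 9.55 CPM (3.51 to 20.8) in cells with at least 80%. Itgb4 had 48.5, 68.6 and 54.1 CPM in the same order, with overlapping intervals. In Fgfr2 KO it had 18.8 CPM (8.57 to 35.6), 29.0 CPM (5.97 to 84.6) and 72.2 CPM (42.0 to 116), highest at the basal end. Itgb1 had 242, 244 and 172 CPM in Ctrl, where the bins held 71, 56 and 35 cells. In Fgfr2 KO it had 179, 241 and 297 CPM, and the bins held 18, 5 and 14 cells. In the Fgfr2 KO bins 53 of 86, 14 of 25 and 13 of 70 UMIs came from 1 cell, and without it the levels were 83.4, 149.7 and 269 CPM. Luminal-keratin cells were split by Prlr, the prolactin receptor gene of hormone-sensing luminal cells. Itgb1 had 242 CPM with and 265 CPM without Prlr in Ctrl, and 252 CPM (202 to 311) with and 102 CPM (61.2 to 159) without Prlr in Fgfr2 KO, on 12 and 8 cells. Of the 88 UMIs with Prlr, 53 came from 1 cell, and without that cell the level was 132 CPM (92.0 to 184), which overlaps the interval without Prlr.

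Epithelial cells were next set against Ptprc-positive cells, which use a partly different set of integrins. In Ctrl, Itgb6, Itgb4, Itga6 and Itga3 were higher in the keratin classes and Itga5 was higher in Ptprc-positive cells. Itgb4 had 56.5 CPM against 12.0 CPM (log2 ratio 2.23, interval 1.48 to 3.09), Itga6 had 110.0 against 36.9 CPM (1.58, 1.14 to 2.05) and Itga3 had 35.4 against 13.6 CPM (1.38, 0.64 to 2.20). Itgb6 had 18.6 against 1.60 CPM, the last on 2 UMIs (3.53, 1.63 to 6.61). Itga5 had 16.3 against 59.3 CPM (-1.87, -2.38 to -1.36), with 24 of its 74 UMIs in Ptprc-positive cells from 1 cell. Of 8 members tested, 4 were at least 2-fold higher and 1 at least 2-fold lower, against 21.4% and 9.51% of 10364 genes, and the median was 1.06 beside 0.35 over all genes. Itgb1 (0.40), Itgav (0.74) and Itgb5 (0.40) differed less.

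Some Ptprc-positive cells held at least 10 keratin UMIs, namely 15 of 73 Ctrl cells and 1 of the 23 from Fgfr2 KO. In Ctrl these 15 cells gave 33 of the 46 Itga6, 11 of the 15 Itgb4, 15 of the 17 Itga3 and 48 of the 74 Itga5 UMIs of the class. In the 58 others Itgb4 had 5.95 CPM in 4 cells and Itga3 had 2.97 CPM in 2 cells. Without the 15 cells the ratio was 3.25 (1.87 to 5.14) for Itgb4, 2.51 (1.72 to 3.43) for Itga6, 3.57 (1.69 to 6.63) for Itga3 and -1.25 (-1.93 to -0.53) for Itga5. In Fgfr2 KO, 6 members were tested, of which 2 (Itga3 and Itga6) were at least 2-fold higher and 0 at least 2-fold lower, against 19.5% and 11.3% of 5689 genes. Itga6 had 2.16 (0.98 to 3.65), and Itga3 had 3.21 (0.62 to 8.57) on 1 UMI in Ptprc-positive cells. The median was 0.82, beside 0.26 over all genes. The cell with 83994 UMIs held all Itga6, Itgb4, Itgb6 and Itga3 UMIs of that class. The other 22 cells had none of them, and against these cells the log2 ratio of Itga6 was at least 2.63 at a floor of 3 counts in the class.

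The leukocyte integrins served as a check on the immune class. Itgb2, the beta chain shared by leukocyte integrins, had 158 CPM (137 to 182) in Ctrl Ptprc-positive cells and 4.01 to 4.57 CPM in the Ctrl keratin classes, to which the next values also refer. Itgam, its partner on myeloid cells, had 124 CPM and at most 1.90 CPM, Itgax, a dendritic cell and macrophage chain, had 48.9 CPM and at most 0.803 CPM, and Itgb7, a lymphocyte homing chain, had 24.1 CPM and at most 1.61 CPM. All 5 of the 8 leukocyte and platelet subunits that could be tested in Ctrl were at least 2-fold lower in the keratin classes, against 9.51% of all genes. Keratin-low cells of Ctrl also held Itgb2 (95.9 CPM) with immune markers at 10454 CPM and fibroblast markers at 19646 CPM. In keratin-low cells Itga5 had 51.1 CPM (29.2 to 83.0) for Ctrl, with an interval above those of both keratin classes. For Fgfr2 KO it had 49.3 CPM (21.3 to 97.1), and the intervals overlapped. Itgb6 was seen in 0 of 33 keratin-low cells of Ctrl, which allows up to 11.8 CPM.

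Several ligands and partners of the members were at least 2-fold apart between the classes. Lama3 and Lamb3 encode chains of the epithelial laminin bound by alpha3 with beta1 and by alpha6 with beta4, and Lamc1 encodes a gamma chain found in many laminins. In Ctrl, Lamb3 had 79.5 CPM in basal-keratin and 37.7 CPM in luminal-keratin cells (log2 ratio 1.08, interval 0.66 to 1.49), and Lamc1 had 62.6 and 32.3 CPM (0.95, 0.49 to 1.41). In Fgfr2 KO, Lamb3 had 148 and 11.2 CPM (3.73, 2.49 to 5.25), and Lamc1 had 38.9 and 22.4 CPM (0.80, with an interval that held 0). Of 8 laminin chains tested in Ctrl, 3 (Lama3, Lama4 and Lamb3) were at least 2-fold higher in the basal class and 0 lower, against 5.51% and 9.05% of all genes tested. Col17a1, a hemidesmosome collagen that binds beta4, had 103 and 9.51 CPM in Ctrl (3.43, 2.81 to 4.11) and 145 and 1.86 CPM in Fgfr2 KO (6.28, 3.72 to 11.6), the last on 1 UMI. Among the 7 hemidesmosome and tetraspanin partners, Col17a1 was the 1 gene at least 2-fold higher in Ctrl and 0 were lower, against 5.51% and 9.05% of all genes. Cd9 (-0.40), a tetraspanin, and Bsg (-0.23), which encodes the surface glycoprotein basigin, differed by less than 2-fold. In Fgfr2 KO, 1 of the 7 (Col17a1) was at least 2-fold higher and 1 (Dst) lower, against 7.33% and 13.8%. In Fgfr2 KO, Dst, which encodes a plakin that links hemidesmosomes to keratin filaments, was lower in the basal class, with 63.6 against 129 CPM (-1.02, -1.85 to -0.25), and in Ctrl it had 90.7 and 95.5 CPM.

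Between the libraries, Lamb3 and Lama3 were lower in luminal-keratin cells of Fgfr2 KO, as were 8.97% of all genes by at least 2-fold. Lamb3 had a log2 ratio of -1.75 (-3.23 to -0.58), and Lama3, at 0 UMIs against 35 in Ctrl, was at least 2.38-fold lower at a floor of 3 counts in the class. In basal-keratin cells 0 of 7 laminin chains tested passed 2-fold in either direction, against 4.14% of all genes higher and 11.5% lower, and Lamb3 had 0.90 (0.34 to 1.44). Among RGD and collagen ligands, Spp1, which encodes osteopontin, was lower in the basal class of both libraries (-2.16 and -1.42), as was Fn1, which encodes fibronectin (-0.99 and -1.39), and Thbs1, which encodes thrombospondin, was higher (1.18 and 1.65). Of the 11 ligands tested in Ctrl, 3 were at least 2-fold higher and 3 lower in the basal class, where 5.51% and 9.05% of all genes were, and of 5 in Fgfr2 KO, 1 was higher and 2 lower, where 7.33% and 13.8% of all genes were. Col1a1, a fibroblast marker as well, was among the 3 lower ones in Ctrl. Fibroblast markers summed to 120 CPM in basal-keratin and 560 CPM in luminal-keratin cells of Ctrl, and their part in the ligand ratios was not tested. Fn1 and Spp1 were higher in Ptprc-positive cells than in the keratin classes of Ctrl, and lower in those of Fgfr2 KO. Of 18 adaptors and kinases that link integrins to actin tested in Ctrl, 0 were higher and 1 lower, a share near that of all genes (5.51% and 9.05%). Parva, an actin-binding partner of integrin-linked kinase, had 0.50 (0.12 to 0.88) in Ctrl and 0.06 (-0.92 to 0.99) in Fgfr2 KO, and Actn1, an actin crosslinker, had -0.35 (-0.53 to -0.16) and -0.016 (-0.50 to 0.45). In Fgfr2 KO, 1 of 13 (Fermt1, which encodes a kindlin) was at least 2-fold higher and 0 lower, against 7.33% and 13.8%. Among the remaining 9 integrin subunits, 3 could be tested in Ctrl. Of these, 2 were at least 2-fold higher in the basal class and 1 lower, against 5.51% and 9.05% of all genes. Itga8 had 1.56 (0.29 to 2.89) on 14 and 10 UMIs, and Itgb8 had 1.08 (0.18 to 1.98) on 23 in each class. Itgb3, higher in the luminal class, had -1.50 (-2.26 to -0.80) on 20 and 119 UMIs. In Fgfr2 KO, 0 of the 9 could be tested, and Itgb3 had 6 and 13 UMIs.

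**Figure D4:**
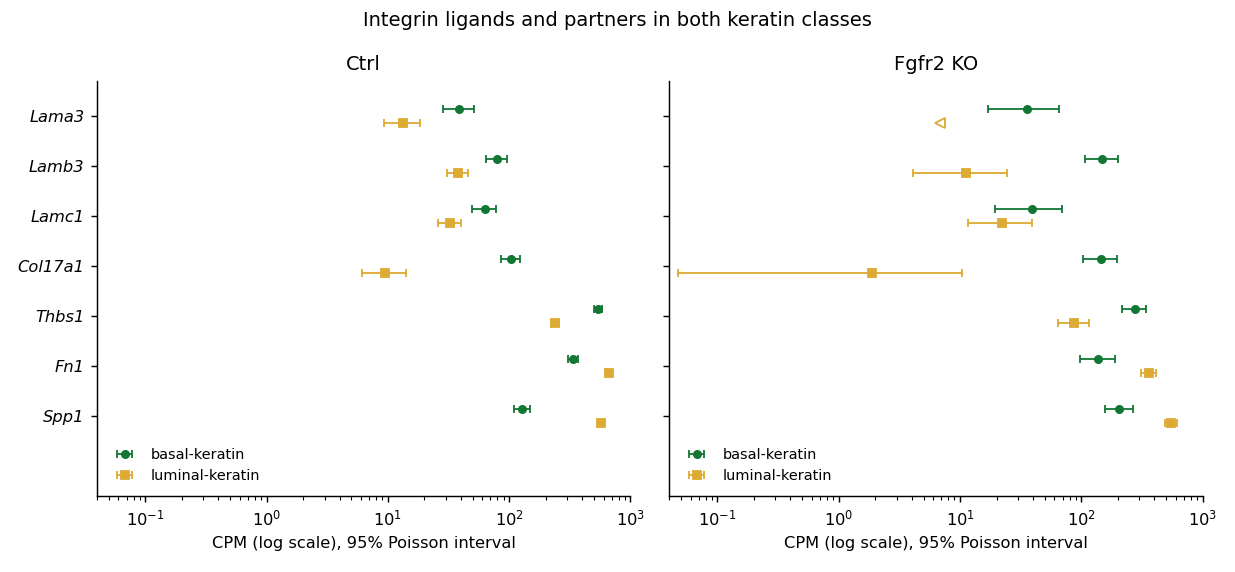
Level (x axis, CPM on a log scale) of integrin ligands and partners in basal-keratin (green circles) and luminal-keratin cells (yellow squares) of the Ctrl and Fgfr2 KO libraries, with 95% Poisson intervals; the open triangle marks the upper limit of a class with 0 UMIs. Lamb3 stands at 37.7 CPM in luminal-keratin cells of Ctrl and at 11.2 CPM in those of Fgfr2 KO.

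Transcripts of several chains were found in the same cell, whether or not the chains pair as proteins. Itga6 and Itgb4 were both seen in 75 of the 161 keratin-class cells of Ctrl (46.6%) and in 15 of the 37 of Fgfr2 KO (40.5%), and Itga6 and Itgb1 in 125 of 161 and 26 of 37. Itga6 and Itgb5, whose products do not pair, were both seen in 83 of 161 (51.6%) and 13 of 37 (35.1%). The Pearson correlation of Itga6 with Itgb4 over single cells was 0.25 in Ctrl and 0.24 in Fgfr2 KO, and 0.13 and 0.05 after thinning to equal depth. These cells share a library and sparse counts, and such weak values describe the cells only. Over the 161 Ctrl keratin-class cells and 7331 genes seen in at least 20% of them, the genes most like Itgb1 were Cd151 (r = 0.52), which encodes a tetraspanin that binds laminin receptors, Tuba1a (0.52) and Igfbp7 (0.51). In the 37 Fgfr2 KO cells the same genes had 0.50, 0.63 and 0.69. For Itgb4 they included Il18r1 (0.54) and Tmem43 (0.48), with -0.14 and -0.27 in Fgfr2 KO. For Itga6 they were Nisch (0.46), mt-Nd4 (0.43) and mt-Atp6 (0.42), with 0.08, -0.19 and -0.0026 in Fgfr2 KO.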

How the data were processed

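Single-cell RNA-seq was made from 1 Ctrl and 1 Fgfr2 KO transplant library. The deposited values were whole-number UMI counts per gene and cell, which the authors made with Cell Ranger, version 2.1.1 in the submitters' processing notes (the study's methods name another version), against mm10, and joined with its aggregation step. Whether that step equalised depth between the libraries was not given in the sources used here. The annotation was not given in the sources used here. Of the symbols, 95.2% occurred in GENCODE M21 (GRCm38), used for positions only. Each column was assigned by its prefix, and 0 barcodes occurred in both libraries. Median depth per cell was 16301 UMIs (Ctrl) and 10485 UMIs (Fgfr2 KO).

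UMIs were summed over the cells of a class and scaled to CPM. Levels have exact Poisson, ratios exact conditional binomial and shares Clopper-Pearson 95% intervals, computed with scipy 1.17.1 and covering counting error only. Ratios needed at least 20 UMIs over both sums, and at least 2-fold was the size given in counts. A class at 0 was set to a floor of 3 counts. Thinning drew 8574 UMIs per cell, the 10th percentile of keratin-class cells, and left out shallower cells. Doublets were kept: Scrublet in scanpy 1.11.5 marked 6 of 86 cells in Fgfr2 KO and 2 of 268 in Ctrl, which an alternative left out. Of these intervals only that of the ratio was tested on simulated counts, which had no spread between cells beyond counting error.

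The members and gene lists were chosen with earlier results of these data known. All 9 members are named. From each list of ligands or partners the text names up to 4 genes with the largest ratio between the keratin classes that had at least 20 UMIs in each library, the same direction in both and a Ctrl interval off 0, and, chosen after their values were seen, Lama3, Lama4, Itga8, Itgb3, Itgb8, Dst, Fermt1 and Col1a1. The 4 leukocyte integrins with most UMIs in Ptprc-positive cells are named, and the 3 genes with the highest correlation for each of Itga6, Itgb4 and Itgb1. The settings that leave out cells with fibroblast transcripts, keratin-holding Ptprc-positive cells, or basal-keratin cells without and luminal-keratin cells with a GFP UMI, were added after the data were seen. A gene that these rules select is not reported here.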

Additional observations from a re-analysis of the deposited data

Results flagged for a closer look

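The log2 ratio of Fgfr2 KO over Ctrl for Itgb1 was 0.49 (0.09 to 0.87) in basal-keratin and -0.33 (-0.64 to -0.03) in luminal-keratin cells, a difference of 0.82. It stands out because the classes moved in opposite directions with both intervals off 0. With 1 library per group the difference itself was not tested. The luminal value rests on 107 Fgfr2 KO UMIs, 53 of them from 1 cell, and was -1.01 (-1.44 to -0.61) without the cell with most Itgb1 UMIs in each library's class and -0.027 without cells holding fibroblast transcripts. The basal value was 0.056 in basal-keratin cells with a GFP UMI.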

How the results depend on the processing

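No paired analysis was possible because each group had 1 library and the labels carry no replicate numbers. For the same reason no library could be left out. Of 615 alternative values of single members, 39 changed sign: 37 of the 341 whose reported interval held 0, and 2 of the 274 whose reported interval did not. Apart from those 2, 570 lay within the reported interval and 43 outside it. Of 264 alternative medians and counts, 233 stayed and 31 moved, and the cause was not tested except where an alternative by construction leaves few cells or genes. A median that stayed could still change sign. That of Fgfr2 KO over Ctrl in basal-keratin cells stayed in all 15 alternatives, but it ran from -0.30 to 0.27 and kept its sign in 11. Itgb1 in Ctrl basal over luminal cells became 0.13 when cells with at least 5 UMIs of immune markers were left out, which keeps 17 and 10 cells. There the median was 0.45 and 1 member, Itgb4, was 2-fold higher. Itgb6 in Fgfr2 KO over Ctrl luminal cells became 0.033 with no Ptprc filter.

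In Ctrl basal over luminal cells, 1 member in place of 0 was 2-fold lower: Itgb6 with at least 30 keratin UMIs, a 4-fold keratin majority, equal weight per cell, the top cell left out, fibroblast-transcript cells left out or GFP-split cells, and Itga5 with at least 2 Ptprc UMIs or no Ptprc filter. In Fgfr2 KO, 2 members in place of 1 were 2-fold higher with at least 1 or 30 keratin UMIs, a 4-fold majority, at least 2 Ptprc UMIs, no Ptprc filter, or immune-transcript or fibroblast-transcript cells left out, and 0 with a minimum of 50 UMIs, under which Itgb4 is not tested. In Fgfr2 KO over Ctrl luminal cells, the count of 2-fold lower members, reported as 2, was 0 with at least 2 Ptprc UMIs, 0 without immune-transcript cells, 1 (Itga5) with no Ptprc filter and 4 without the top cell, and 1 member (Itga2) was higher with no minimum of UMIs. In Fgfr2 KO epithelial over Ptprc-positive cells, 2 higher members became 1 with at least 2 Ptprc UMIs, without immune-transcript cells or with a minimum of 50 UMIs, and 4 with equal weight per cell or without keratin-holding Ptprc-positive cells. There 0 lower members became 1 (Itgb5) with at least 2 Ptprc UMIs and 2 with no minimum, and the median was 2.92 with equal weight per cell.

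Depth limits Itga2, Itga5 and Itgb6 most, and the small Fgfr2 KO library widens the intervals of the ratios that use it.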
